A study of Mus musculus with 24 samples.

Results

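The genes described are 9 that encode cytosolic and endosomal sensors of nucleic acids and the adaptors that carry their signals: Ifih1, Rigi, Dhx58, Mavs, Cgas, Sting1, Zbp1, Tlr3 and Eif2ak2. They were named by function from a counts table of 24454 genes, and all 9 of them were among the 16317 genes with enough counts to be tested. RNA was sequenced from organ of Corti (OC) explants of C57BL/6N mice of both sexes, aged 5 days, with 6 OCs pooled in a library and 3 libraries in each of 8 groups. All OCs, those of the controls included, spent 24 h in serum-containing medium with penicillin before treatment. They were then held for 6 or 24 h without drugs (CTRL), in 50 µM gentamicin (GM), in 10 µM pioglitazone (PIO), or in the 2 together (PIO + GM). Gentamicin is an antibiotic toxic to hair cells (HCs), and pioglitazone activates the transcription factor PPAR-γ. No genotype or transgene is named beside the strain, and each library mixes all cell types of the explant. Nothing in the labels says that the 3 libraries of a group came from separate animals, so the p-values measure the spread between libraries, part of which may be technical.

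Cells detect viral or displaced self nucleic acid through receptors that differ in the ligand they bind and in the compartment they survey. RIG-I (Rigi) and MDA5 (Ifih1) bind double-stranded RNA in the cytosol and signal through the mitochondrial adaptor MAVS, and LGP2 (Dhx58) modulates both of them. cGAS (Cgas) binds DNA and makes the cyclic dinucleotide that activates STING (Sting1), ZBP1 binds left-handed nucleic acid, TLR3 reads double-stranded RNA in endosomes, and PKR (Eif2ak2) phosphorylates eIF2α when it binds double-stranded RNA. These routes lead to type I interferon, which in turn raises transcription of several of the sensors through the interferon-stimulated response element (ISRE).

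The ISRE letters are shown for the members that hold them, because several of these genes varied together across the libraries. RefSeq windows of build GRCm38.p6 run from 250 bases before to 50 bases after an annotated start of a gene. They were at hand for 6 of the 9 members (Ifih1, Rigi, Mavs, Cgas, Tlr3 and Eif2ak2), and not for Dhx58, Sting1 and Zbp1. The ISRE letters, searched as GAAA, any 2 bases and GAAA again on both strands, were in 3 of these 6 windows and in 3.44% of all 32851 windows, or 3.99% of the 27025 genes with a window. In the 30-base stretches printed here, 5′ to 3′ on the strand of the gene, capitals mark the matched letters.
Ifih1: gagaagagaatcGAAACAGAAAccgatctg
Rigi: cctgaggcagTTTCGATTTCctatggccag
Eif2ak2: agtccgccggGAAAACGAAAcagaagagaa
All 3 stretches lie on the minus strand, at chr2:62646206-62646235 for Ifih1, chr4:40239804-40239833 for Rigi and chr17:78882535-78882564 for Eif2ak2. Each match lies just downstream of the start site, at bases 33 to 42 in Ifih1, 3 to 12 in Rigi, where it reads on the opposite strand, and 19 to 28 in Eif2ak2. By the GENCODE annotation the matches of Rigi and Eif2ak2 fall in the 5′ untranslated part of the first exon and that of Ifih1 in an exon.

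The shorter letters AANNGAAA, the core bound by interferon regulatory factors, are contained in the longer motif and were in 23.9% of the windows and 26.7% of the genes. Outside the longer matches and those overlapping them, they occurred once in Rigi and once in Tlr3.
Rigi: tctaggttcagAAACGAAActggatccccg
Tlr3: aagtgaatggcTTTCACTTtgtttagacac
These stretches lie at chr4:40239866-40239895 and chr8:45410421-45410450 on the minus strand, with both matches at bases -59 to -52 from the start used for the window and that of Tlr3 on the opposite strand. For Tlr3 that start lies inside the gene, whose span reaches to base 45411075. In the annotation the match of Rigi lies upstream of the transcripts, but that of Tlr3 lies inside a transcript, outside its exons. The windows of Mavs and Cgas held neither set of letters. A match describes the letters of the window and shows no binding.

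Library totals ranged from 7211357 to 15548856 counts, with the lowest total in a PIO + GM library at 6 h, and 3 counts corresponded to between 0.193 and 0.416 CPM (counts scaled to a common library total), a floor that covers counting error only. Markers of hair cells (10 genes) and supporting cells (6 genes) were detected in every library, with summed levels of 141 to 458 CPM and 375 to 1146 CPM. Markers of macrophages (12 genes), Schwann cells (5), neurons (5), fibroblasts and otic mesenchyme (5), endothelial cells (4) and erythroid cells (4) were also above 0 in every library, so each library held RNA of cells other than hair and supporting cells. In such bulk samples, fewer cells of a type and less RNA per cell cannot be told apart. Within the PIO + GM group at 6 h, replicate 1 had the highest level of 9 of the 9 members, and within CTRL at 6 h replicate 2 had the highest level of 8 and replicate 3 the lowest of 8. Within GM at 6 h replicate 1 had the lowest level of 8.

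Per gene length, the double-stranded RNA kinase gene Eif2ak2 was the most abundant of the 9, with a median over the 24 libraries of 15.5 RPKM (9.67 to 27.9). The adaptor gene Mavs followed with 11.6 RPKM (7.24 to 13.7) and Rigi with 9.95 RPKM (5.35 to 22.2). Tlr3 (4.58 RPKM, 2.59 to 7.91) and Ifih1 (4.18 RPKM, 1.90 to 12.6) were intermediate. The lowest medians were those of Sting1 (2.20 RPKM), Zbp1 (1.68 RPKM), Dhx58 (1.55 RPKM) and Cgas (0.911 RPKM). These 4 rested on 11 to 161, 16 to 167, 18 to 137 and 14 to 109 counts per library, against 524 to 1423 counts for Eif2ak2. In this order the ranges of neighbouring genes overlapped in every case. Exons of Dhx58, Cgas, Tlr3 and Eif2ak2 share 141, 201, 381 and 174 bases with a gene on the opposite strand (Dhx58os, Gm8093, Gm45542 and Gm26637), and Eif2ak2 a further 47 bases with n-R5s29. The use of strand in the counting is not stated, so reads from those bases cannot be told apart.

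**Figure D1:**
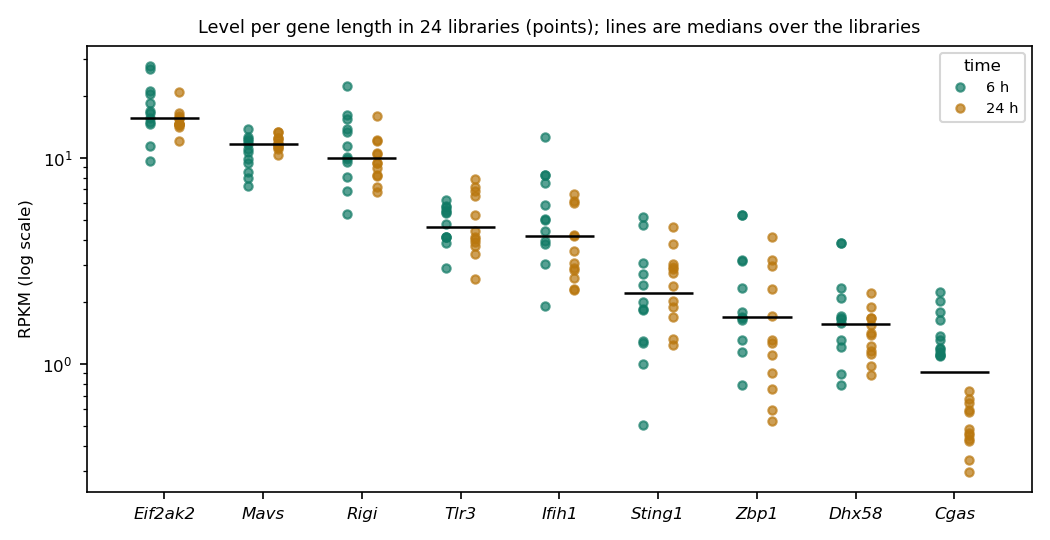
Level of each sensor gene per gene length (RPKM, log scale) in the 24 libraries, with the 12 libraries of 6 h and the 12 of 24 h in separate colours and a line at the median over all libraries. Eif2ak2 has the highest median (15.5 RPKM) and Cgas the lowest (0.911 RPKM), and only for Cgas do the 6 h and 24 h points form separate ranges.

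After 6 h of GM, the cytosolic RNA receptors were higher in every library than in every CTRL library, on average by 1.84-fold to 2.17-fold, but no member passed the adjusted threshold. Ifih1 (chromosome 2, 62595618 to 62646255 in GRCm38.p6), which encodes MDA5, was at 4.45, 4.81 and 3.41 log2 CPM in CTRL and at 5.02, 5.50 and 5.50 in GM. Its log2 fold change was 1.04 ± 0.36 (SE, n = 3 against 3, edgeR's quasi-likelihood fit). All 3 GM libraries lay above the highest CTRL library, and the CTRL libraries spread over more than 1 unit. Rigi (chromosome 4, 40203777 to 40239825), the receptor of short double-stranded RNA with a triphosphate end, was at 5.32, 5.60 and 4.73 log2 CPM in CTRL and 5.82, 6.24 and 6.31 in GM, a log2 fold change of 0.88 ± 0.25. The groups did not overlap here either. Dhx58 (chromosome 11, 100694884 to 100704271), the family member without signalling domains, was at 1.72, 2.04 and 1.21 log2 CPM in CTRL and 2.38, 2.54 and 3.24 in GM, a log2 fold change of 1.12 ± 0.37.

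Zbp1 (chromosome 2, 173206612 to 173218959), whose protein engages RIPK3 in necroptosis, had the largest difference of the 9 at this time. It was at 1.89, 1.92 and 1.40 log2 CPM in CTRL and 2.82, 2.80 and 3.53 in GM, a log2 fold change of 1.38 ± 0.45 or 2.61-fold. Eif2ak2 (chromosome 17, 78850504 to 78882572) was at 5.63, 5.98 and 5.39 log2 CPM in CTRL and 6.07, 6.31 and 6.45 in GM, which gave 0.60 ± 0.16. This is a smaller step than that of Zbp1, measured with a smaller error in a gene with more counts. Tlr3 (chromosome 8, 45395665 to 45411075), the endosomal receptor, was at 4.54, 4.17 and 3.68 log2 CPM in CTRL and 4.60, 4.64 and 4.75 in GM. The groups were separate by a narrow margin, with a log2 fold change of 0.50 ± 0.27 (0.31 without CTRL replicate 3), and the unadjusted p was above 0.05.

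For the adaptors and the DNA-sensing route, the log2 fold changes were -0.05 ± 0.18 for Mavs, -0.07 ± 0.29 for Cgas and 0.04 ± 0.45 for Sting1, each with overlapping libraries. With 1 library left out, that of Sting1 ranged from -0.34 to 0.60. Thus 5 of the 9 members had an unadjusted p under 0.05, all higher, against 1.49% of all genes tested, and 6 of 9 had libraries that did not overlap, all higher, against 5.23% of all genes. The median log2 fold change of the 9 was 0.60, and that of all genes was -0.00. After Benjamini-Hochberg adjustment in edgeR 0 members and 0% of all genes passed 0.05 (adjusted p = 1.00 for each member), 243 genes had an unadjusted p under 0.05, and DESeq2 also called 0 genes. Leaving out 1 library at a time kept between 4 and 6 members under an unadjusted p of 0.05, with 4 when CTRL replicate 3 or GM replicate 3 was left out. Summed macrophage markers were 67.4 to 149 CPM in CTRL and 65.9 to 150 CPM in GM at this time, with a median log2 fold change of 0.18 and 10 of 12 above 0. Markers of Schwann cells had a median log2 fold change of 0.42 and those of neurons 0.29, with all 5 of each above 0, and erythroid markers one of -0.63, with 0 of 4 above 0. Whether they had a part in the levels of the sensors was not tested.

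The comparison of PIO + GM with PIO addresses the same question in libraries that do not enter the one above. At 6 h, 5 of the 9 members again had an unadjusted p under 0.05, all higher, and these were Ifih1, Rigi, Dhx58, Zbp1 and Eif2ak2, against 3.06% of all genes. Ifih1 was at 4.61, 4.41 and 4.08 log2 CPM in PIO and 6.12, 5.38 and 4.79 in PIO + GM, a log2 fold change of 1.16 ± 0.36. Rigi was at 5.65, 5.10 and 5.56 log2 CPM in PIO and 6.78, 6.04 and 6.10 in PIO + GM (0.90 ± 0.25). Eif2ak2 was at 6.19, 6.01 and 6.16 log2 CPM in PIO and 6.92, 6.51 and 6.87 in PIO + GM (0.66 ± 0.16). For these 3 genes the groups did not overlap, against 3.38% of all genes. For Zbp1 they did, with 2.01, 0.89 and 1.57 log2 CPM in PIO and 3.54, 2.38 and 1.93 in PIO + GM (1.27 ± 0.45).

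Dhx58 likewise overlapped, with 2.07, 1.04 and 1.61 log2 CPM in PIO and 3.24, 2.09 and 1.98 in PIO + GM (0.96 ± 0.38). The median over the 9 members was 0.66 beside 0.00 over all genes. No member passed after adjustment in edgeR (adjusted p = 0.998 for these 5), 0% of all genes did (499 genes unadjusted), and DESeq2 called 0 members and 1 gene. Replicate 1 of PIO + GM carried part of this difference. Without it, 2 members remained higher at an unadjusted p under 0.05 (Rigi and Eif2ak2), Mavs was lower, 12.4% of all genes were under it, the median was 0.41, and the log2 fold change was 0.74 for Ifih1, 0.41 for Dhx58 and 0.64 for Zbp1. Without PIO replicate 2, 3 members were higher (Ifih1, Rigi and Eif2ak2) and Mavs lower, while 20.9% of all genes were under 0.05. Markers of Schwann cells (median log2 fold change 0.66, 4 of 5 above 0) and of neurons (0.62, 5 of 5 above 0) were higher by about as much as the members in this comparison, although 0 of them had an unadjusted p under 0.05, and macrophage markers were at -0.17 (4 of 12 above 0). Their part in the levels of the sensors was not tested.

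**Figure D2:**
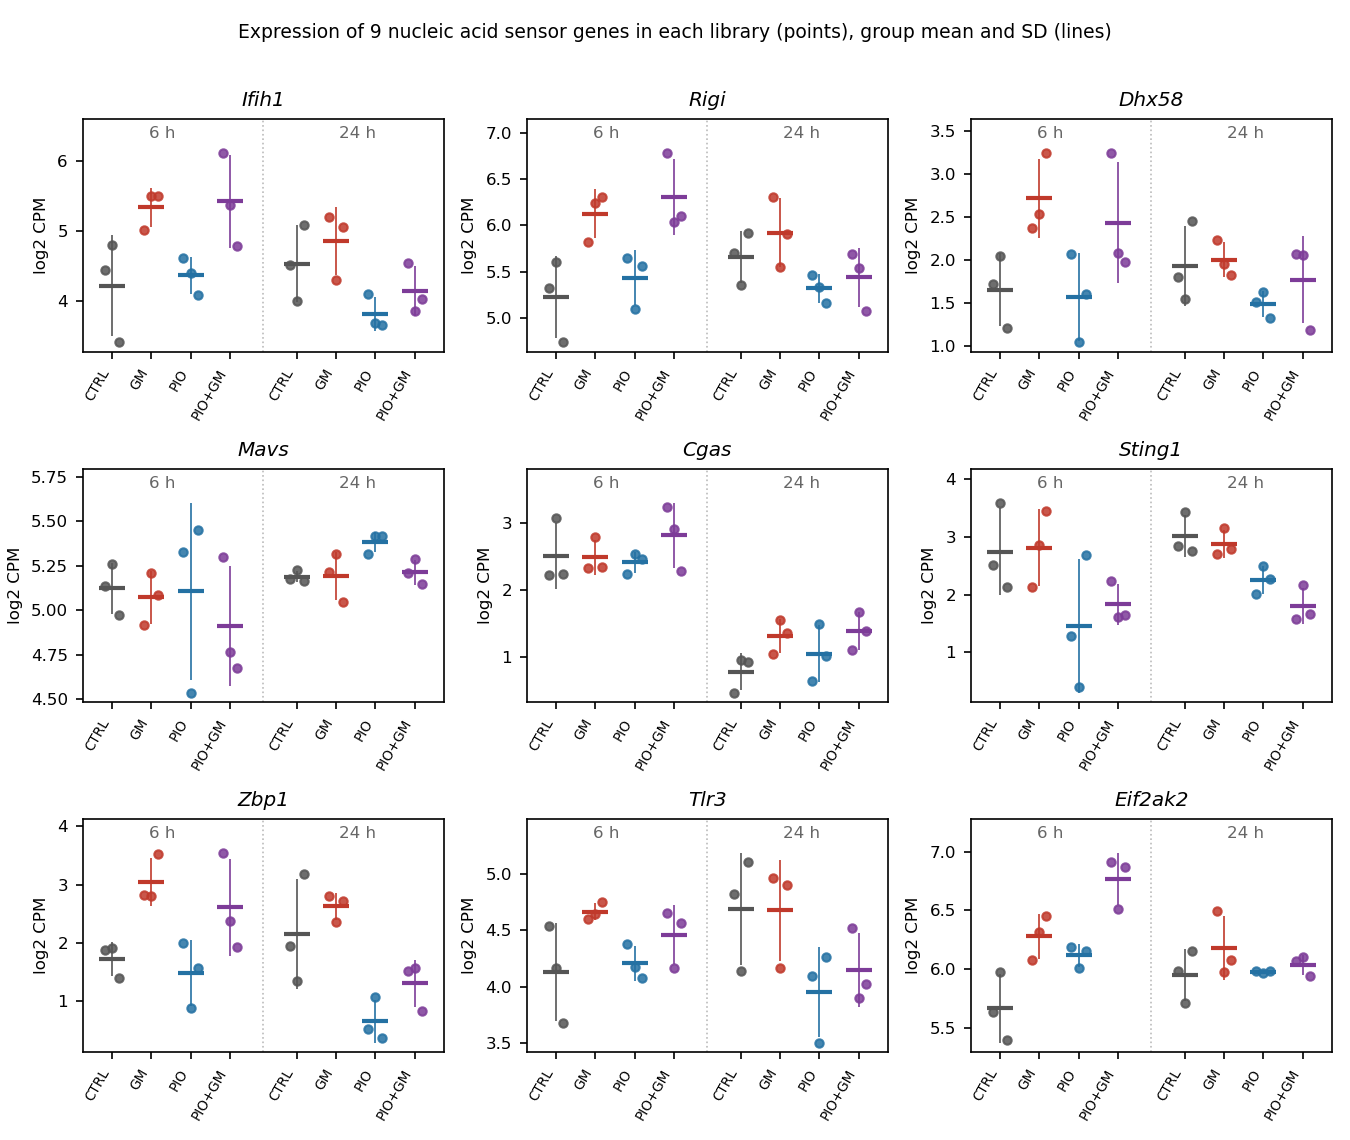
Expression of the 9 sensor genes as log2 CPM in each library (points), with the group mean (horizontal line) and SD (vertical line) of 3 libraries per group, 6 h left and 24 h right of the dotted line. At 6 h the GM points of Ifih1, Rigi, Dhx58, Zbp1, Tlr3 and Eif2ak2 lie above all CTRL points, and Cgas is lower in all 24 h libraries (0.47 to 1.67) than in all 6 h libraries (2.22 to 3.23).

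**Figure D3:**
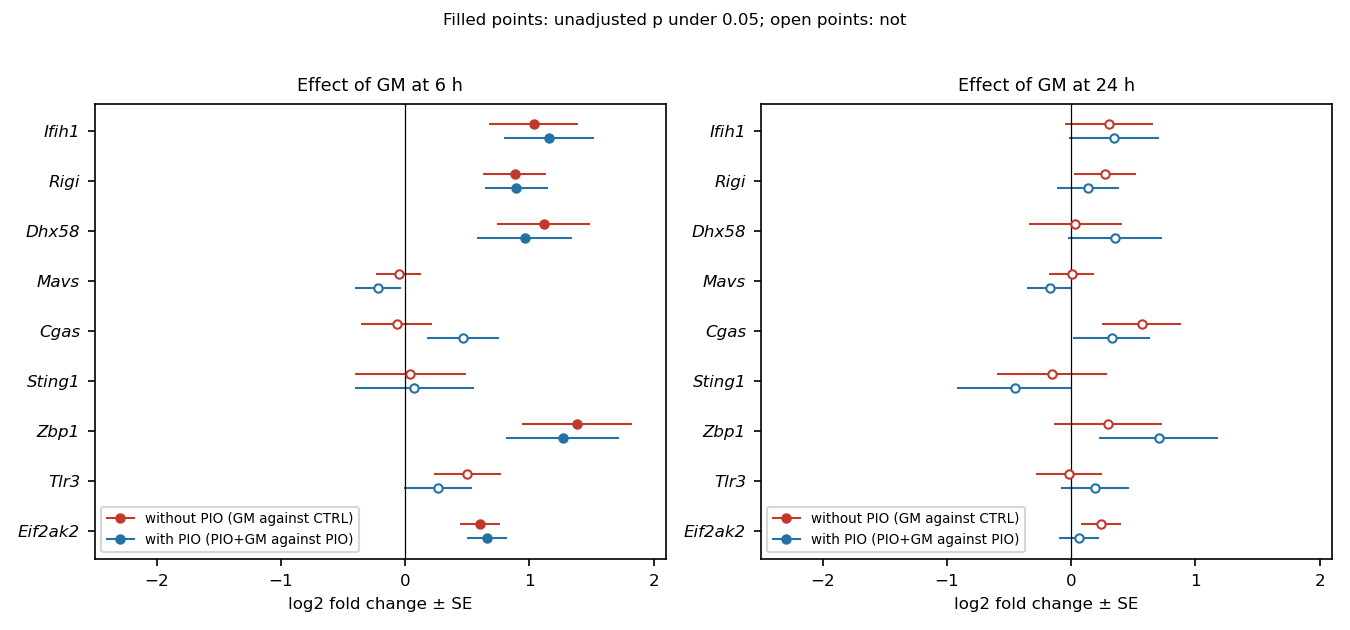
Log2 fold change ± SE (edgeR) of each sensor gene with GM, without PIO (GM against CTRL, red) and with PIO (PIO+GM against PIO, blue), at 6 h (left) and 24 h (right), filled where the unadjusted p was under 0.05. At 6 h the same 5 genes are filled in both comparisons, with values of 0.60 to 1.38, and at 24 h none is.

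Genes that act around the sensors were counted in 7 lists. With GM at 6 h, in both comparisons, 0 genes of any list passed the adjusted threshold in edgeR, as for all genes, and the lists are described by their medians. The 8 interferon-stimulated readouts had a median log2 fold change of 1.89 against CTRL and 1.75 for PIO + GM against PIO, with all 8 at an unadjusted p under 0.05 both times, where 1.49% and 3.06% of all genes were. The readouts with the lowest p-values were Isg15, a ubiquitin-like modifier (1.88 ± 0.57), and Mx1, an antiviral GTPase (1.94 ± 0.65), against CTRL. Against PIO they were Rsad2, which makes an antiviral nucleotide (2.32 ± 0.66), and Isg15 (1.88 ± 0.57). The medians of the other 6 lists lay between -0.04 and 0.21 in GM against CTRL and between -0.02 and 0.14 in PIO + GM against PIO.

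Single genes of these lists stood apart from their list's median. Ddx60, a helicase that promotes RIG-I signalling, was at 1.54 ± 0.51 against CTRL and 1.43 ± 0.50 against PIO. Ifi204, a DNA-binding member of the IFI16 family, was at 1.25 ± 0.38 and 1.23 ± 0.38. Irf7, which drives interferon genes downstream of the endosomal receptors, was at 1.92 ± 0.62 against CTRL. The interferon genes on the list were near the floor at both times, with at most 2 counts of Ifnb1 and at most 2 of Ifna4 in any library, and they were not tested.

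At 24 h of GM none of the 9 sensors had an unadjusted p under 0.05 against CTRL, where 1.67% of all genes did. Log2 fold changes ranged from -0.15 for Sting1 to 0.57 for Cgas, with a median of 0.24 beside -0.00 over all genes, and of 0.06 without GM replicate 1 and 0.07 without CTRL replicate 2. Cgas was at 0.47, 0.96 and 0.93 log2 CPM in CTRL and 1.04, 1.55 and 1.36 in GM, the one member without overlap, where 5.66% of all genes had none (0.57 ± 0.32). Zbp1 was the one member to come under 0.05 when a library was left out, without CTRL replicate 3. After adjustment in edgeR 0 members and 0.0123% of all genes passed, and DESeq2 called 0 members. With the replicate block 12 genes passed in place of 2, and 0 members. For PIO + GM against PIO at 24 h, 0 members had an unadjusted p under 0.05 (2.59% of all genes), the log2 fold changes ranged from -0.46 for Sting1 to 0.71 for Zbp1, and the median was 0.19. It was 0.05 without PIO + GM replicate 1 and 0.29 without PIO + GM replicate 3.

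Mavs was the one member whose libraries did not overlap in this last comparison, at 5.32, 5.42 and 5.42 log2 CPM in PIO and 5.21, 5.29 and 5.15 in PIO + GM. The difference was small (-0.17 ± 0.18), and 8.81% of all genes did not overlap. Within pairs of the same replicate number, Ifih1, Zbp1 and Cgas were higher with GM in all 3 and Mavs and Sting1 lower in all 3, and 32.2% of all genes differed in 1 direction in all 3. In edgeR 0 members and 0.0735% of all genes passed after adjustment, and DESeq2 called 0 members. Hair cell markers summed to 305 to 458 CPM in CTRL and 215 to 283 CPM in GM at 24 h, without overlap. Their part in the levels of the sensors was not tested.

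With PIO for 6 h, Sting1 was the member with the largest difference, lower by 2.16-fold against CTRL, and Eif2ak2 was higher by 1.35-fold. Sting1, which encodes the endoplasmic reticulum adaptor of the DNA route, was at 2.51, 3.58 and 2.13 log2 CPM in CTRL and 1.29, 0.40 and 2.69 in PIO. PIO replicate 3 lay above 2 of the CTRL libraries, so the groups overlapped (-1.11 ± 0.47, adjusted p = 0.271 by edgeR with Benjamini-Hochberg adjustment). Without that library the log2 fold change was -2.04, and without CTRL replicate 2, the highest of the 24 libraries, it was -0.56. Its unadjusted p was above 0.05 without CTRL replicate 2, PIO replicate 1 or PIO replicate 2. Eif2ak2 was at 5.63, 5.98 and 5.39 log2 CPM in CTRL and 6.19, 6.01 and 6.16 in PIO, with every PIO library above every CTRL library (0.43 ± 0.16, adjusted p = 0.215). Its unadjusted p was above 0.05 without CTRL replicate 3.

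The 2 members under an unadjusted p of 0.05 compare with 15.2% of all genes in this contrast, and the 1 member without overlap with 15.4%, so neither share exceeded the background by much. No member passed the adjusted threshold in edgeR, where 0.337% of all genes did, and DESeq2 called 0 members. The median log2 fold change was 0.03 beside 0.00 over all genes, and it turned to -0.26 without CTRL replicate 3 and was 0.16 without CTRL replicate 2.

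The same 2 genes came first where PIO + GM was compared with GM at 6 h, in libraries that do not enter the comparison of PIO with CTRL. Sting1 was at 2.13, 2.85 and 3.46 log2 CPM in GM and 2.24, 1.61 and 1.65 in PIO + GM (-1.08 ± 0.47, adjusted p = 0.163 by edgeR), with overlap through 1 library of each group. Leaving out 1 library moved this value between -1.37 and -0.70, and its unadjusted p was above 0.05 without GM replicate 3, PIO + GM replicate 2 or PIO + GM replicate 3. Eif2ak2 was at 6.07, 6.31 and 6.45 log2 CPM in GM and 6.92, 6.51 and 6.87 in PIO + GM, without overlap (0.49 ± 0.16, adjusted p = 0.092). The PIO + GM group at 6 h thus had the highest Eif2ak2 of the 8 groups, with a mean of 6.76 ± 0.22 log2 CPM (SD, n = 3) and no overlap with the next group, GM at 6 h (6.28 ± 0.19). In this contrast 25.0% of all genes had an unadjusted p under 0.05 and 23.0% did not overlap, so 2 and 1 of 9 members were near the background. In edgeR 0 members and 1.32% of all genes passed the adjusted threshold. DESeq2 called 1 member, Eif2ak2 (adjusted p = 0.0374), beside 8.15% of all genes.

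Markers of several other cell types differed with PIO at 6 h. Against CTRL their median log2 fold change was -0.69 for Schwann cells (0 of 5 above 0), -0.63 for neurons (0 of 5), -0.52 for endothelial cells (0 of 4), -0.48 for fibroblasts and otic mesenchyme (2 of 5), -0.30 for hair cells (4 of 10), -0.19 for erythroid cells (0 of 4), -0.18 for supporting cells (3 of 6) and -0.07 for macrophages (4 of 12). For PIO + GM against GM it was -0.41 for Schwann cells (0 of 5), -0.27 for neurons (0 of 5), -0.10 for endothelial cells (2 of 4), -0.44 for fibroblasts and otic mesenchyme (2 of 5), -0.37 for hair cells (4 of 10), -0.32 for supporting cells (1 of 6), -0.41 for macrophages (2 of 12) and 0.53 for erythroid cells (3 of 4). In each of the 2 comparisons 1 of these genes passed the adjusted threshold, a fibroblast or mesenchyme marker that was lower. Their part in the levels of Sting1 and Eif2ak2 was not tested.

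At 24 h of PIO no member passed the adjusted threshold against CTRL. The largest difference was that of Zbp1, 3.37-fold lower than in CTRL, followed by Sting1, Ifih1 and Tlr3. Zbp1 was at 1.94, 1.34 and 3.18 log2 CPM in CTRL and 0.53, 1.08 and 0.38 in PIO. The groups did not overlap, although CTRL replicate 3 stood more than 1 unit above the other 2 (-1.75 ± 0.47, adjusted p = 0.159 by edgeR). Without CTRL replicate 3 the log2 fold change was -1.04. Tlr3 was at 4.82, 4.14 and 5.10 log2 CPM in CTRL and 4.09, 3.50 and 4.26 in PIO (-0.76 ± 0.27, adjusted p = 0.32). Ifih1 was at 4.52, 4.00 and 5.09 log2 CPM in CTRL and 4.10, 3.69 and 3.66 in PIO (-0.77 ± 0.36, adjusted p = 0.483), and its log2 fold change was -0.45 without CTRL replicate 3. In both genes CTRL replicate 2 fell within the range of PIO, so the groups overlapped, while the PIO library was the lower in each of the 3 pairs of the same replicate number. In all, 7 of 9 members differed in 1 direction in all 3 pairs, Rigi, Sting1 and Zbp1 also as lower and Mavs and Cgas as higher, and 48.1% of all genes did. With the replicate block the adjusted p was 0.0513 for Tlr3, 0.248 for Ifih1 and 0.105 for Zbp1, and 241 genes passed in place of 25.

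Sting1 was at 2.85, 3.43 and 2.76 log2 CPM in CTRL and 2.00, 2.49 and 2.26 in PIO at 24 h, lower in every library (-0.80 ± 0.45, adjusted p = 0.585 by edgeR). The adaptor gene Mavs (chromosome 2, 131234063 to 131248025) was at 5.18, 5.23 and 5.17 log2 CPM in CTRL and 5.32, 5.42 and 5.42 in PIO, higher in every library by a small step (0.20 ± 0.18, adjusted p = 0.788). Altogether 3 members had an unadjusted p under 0.05, all lower, where 9.93% of all genes did, and 3 did not overlap, 1 higher and 2 lower, where 22.3% of all genes did not. The median was -0.51 beside -0.01 over all genes, and -0.22 without CTRL replicate 3. In edgeR 0 members and 0.153% of all genes passed the adjusted threshold, and DESeq2 called 1 member, Zbp1 (adjusted p = 0.0297), beside 0.993% of all genes. With 1 library left out, between 1 and 3 members were under an unadjusted p of 0.05. Zbp1 was the one left without CTRL replicate 3 or without PIO replicate 2, and Zbp1 and Tlr3 were left without CTRL replicate 1 or without PIO replicate 3. Summed macrophage markers were 124 to 169 CPM in CTRL and 87.1 to 239 CPM in PIO at 24 h, and those of fibroblasts and otic mesenchyme 2514 to 3117 and 1803 to 2687 CPM (median log2 fold change -0.41). Hair cell markers had a median of -0.40 (1 of 10 above 0), endothelial markers one of -0.26 (0 of 4) and erythroid markers one of 0.58 (4 of 4). Their part in the levels of the sensors was not tested.

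PIO + GM against GM at 24 h, again in separate libraries, had Zbp1 and Sting1 lower without overlap. Zbp1 was at 2.81, 2.37 and 2.71 log2 CPM in GM and 1.52, 1.57 and 0.84 in PIO + GM (-1.34 ± 0.45, adjusted p = 0.411 by edgeR). Sting1 was at 2.71, 3.16 and 2.79 log2 CPM in GM and 1.59, 2.16 and 1.67 in PIO + GM (-1.10 ± 0.46, adjusted p = 0.562). Each group of 3 was thus apart from the other for both genes. These were the 2 members under an unadjusted p of 0.05 (7.47% of all genes) and the 2 of 9 without overlap (18.4%), a share without overlap near the background. The other members ranged from -0.74 for Ifih1 to 0.07 for Cgas. The median of the 9 was -0.49 beside 0.00 over all genes, and -0.28 without GM replicate 1. Leaving out 1 library gave 1 to 4 members under 0.05. It was Zbp1 alone without PIO + GM replicate 3, and Ifih1, Rigi, Zbp1 and Tlr3, but not Sting1, without GM replicate 2 or PIO + GM replicate 1. In edgeR 0 members and 0.110% of all genes passed after adjustment, and DESeq2 called 0 members. Summed fibroblast and otic mesenchyme markers did not overlap in this comparison, at 2406 to 3956 CPM in GM and 1770 to 2241 CPM in PIO + GM, with a median log2 fold change of -0.78 and 4 of 5 at an unadjusted p under 0.05. Endothelial markers were at -0.50 (0 of 4 above 0), hair cell markers at -0.43 (3 of 10) and macrophage markers at -0.24 (1 of 12). The part of these markers in the levels of Zbp1 and Sting1 was not tested.

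**Figure D4:**
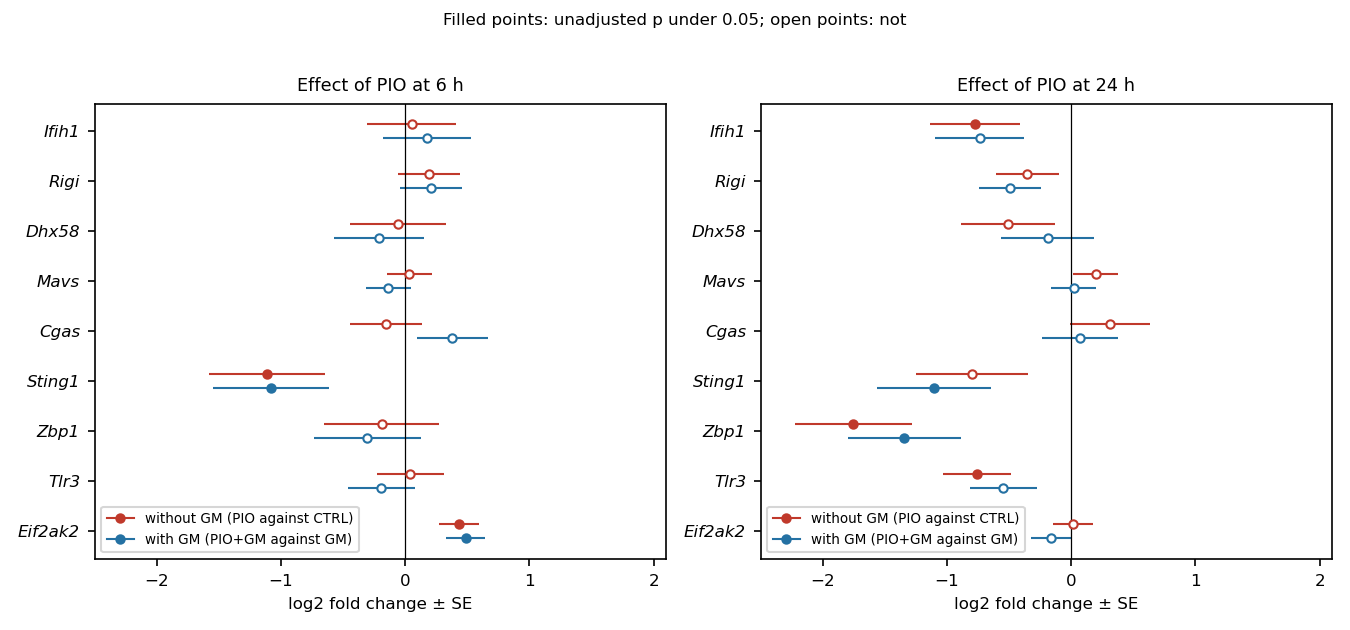
Log2 fold change ± SE (edgeR) of each sensor gene with PIO, without GM (PIO against CTRL, red) and with GM (PIO+GM against GM, blue), at 6 h (left) and 24 h (right), filled where the unadjusted p was under 0.05. Sting1 lies between -1.11 and -0.80 in all 4 comparisons, and Zbp1 lies at -0.19 and -0.31 at 6 h and at -1.75 and -1.34 at 24 h.

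Of the 7 lists of surrounding genes, 1 of 69 tested genes passed the adjusted threshold in 1 of the 4 comparisons with PIO, which is 1.45% beside the 1.32% of all genes in that contrast. It was Banf1, which binds cytosolic DNA and restrains cGAS, lower in PIO + GM than in GM at 6 h (-0.66 ± 0.16, adjusted p = 0.049 by edgeR). With only the groups compared in the fit, 0 of all genes passed in that contrast. In that contrast Ripk1, the kinase partner of RIPK3, was at 0.40 ± 0.11, Traf6, a ubiquitin ligase downstream of MAVS, at 0.35 ± 0.10, and Tarbp2, an inhibitor of PKR, at -0.71 ± 0.22. The 8 interferon-stimulated readouts had medians of 0.22 for PIO against CTRL and 0.21 for PIO + GM against GM at 6 h, and of -1.49 and -1.78 at 24 h. At 24 h 5 and 8 of the 8 had an unadjusted p under 0.05, all lower, where 9.93% and 7.47% of all genes did, with Mx1 at -1.87 ± 0.72 against CTRL and Ifit3, an RNA-binding antiviral gene, at -2.36 ± 0.71 against GM. These counts too are a description, since the readouts were chosen with earlier results of these data known. Ddx60 was at -1.32 ± 0.51 and -1.38 ± 0.49 in the same contrasts, and Mlkl, the pore-forming effector of necroptosis, at -1.09 ± 0.48 against GM. The medians of the other 6 lists lay between -0.22 and 0.03 at 24 h.

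Between the times, Cgas (chromosome 9, 78430518 to 78443237) was the one member that fell in all 4 treatments. Its 12 libraries of 24 h lay between 0.47 and 1.67 log2 CPM and its 12 of 6 h between 2.22 and 3.23, without overlap, as held for 12.4% of all genes. In CTRL it was at 2.22, 3.08 and 2.24 log2 CPM at 6 h and fell by 1.85 ± 0.31 on the log2 scale (3.61-fold lower, adjusted p = 0.000291 by edgeR). In GM it was at 2.33, 2.79 and 2.34 at 6 h and fell by 1.21 ± 0.30 (adjusted p = 0.00628), and in PIO it was at 2.24, 2.53 and 2.46 at 6 h, 0.65, 1.50 and 1.01 at 24 h, and fell by 1.38 ± 0.30 (adjusted p = 0.0028). In PIO + GM it was at 3.23, 2.91 and 2.29 at 6 h, 1.10, 1.67 and 1.38 at 24 h, and fell by 1.52 ± 0.30 (adjusted p = 0.00087). The call held in each treatment with any single library left out. It rested on 14 to 41 counts per library at 24 h. Within CTRL, 46.4% of all genes did not overlap between the times.

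Cgas was the 1 of 9 members past the adjusted threshold in CTRL, GM and PIO, where 28.0%, 24.2% and 29.0% of all genes passed, so the number of members called was not above the background. The fall of Cgas went with other changes over time. Summed erythroid markers were 129 to 487 CPM at 6 h and 56.3 to 176 CPM at 24 h over all groups, Schwann cell markers 359 to 2567 CPM and 333 to 842 CPM, and supporting cell markers 375 to 1025 CPM and 912 to 1146 CPM. Neuron markers had medians from -1.72 to -0.67 over the 4 treatments, with 0 of 5 above 0 in each, and macrophage markers medians from 0.63 to 0.75, with 11 of 12 above 0 in each. Their part in the fall was not tested. The 3 genes whose log2 CPM was most like that of Cgas over the 24 libraries, among 15002 genes, were Nob1 (Pearson r = 0.95), Isg20l2 (0.95) and Mcl1 (0.95), the first 2 of which act in ribosome assembly and the third against apoptosis.

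In PIO + GM, 5 members were lower at 24 h than at 6 h by the adjusted threshold, where 34.6% of all genes passed. Beside Cgas they were Ifih1 (-1.37 ± 0.36, adjusted p = 0.00683), Zbp1 (-1.50 ± 0.45, adjusted p = 0.016), Rigi (-0.89 ± 0.25, adjusted p = 0.0106) and Eif2ak2 (-0.74 ± 0.16, adjusted p = 0.00181), all by edgeR. Ifih1 was at 6.12, 5.38 and 4.79 log2 CPM at 6 h and 4.55, 3.86 and 4.02 at 24 h. Eif2ak2 was at 6.92, 6.51 and 6.87 at 6 h and 6.07, 6.10 and 5.94 at 24 h. In all 5 genes the 24 h libraries lay below the 6 h libraries, and 43.1% of all genes did not overlap in either direction. Leaving out 1 library moved 2 of these calls. Without PIO + GM replicate 1 at 6 h the adjusted p was 0.0741 for Rigi and 0.143 for Zbp1, the log2 fold change of Zbp1 was -0.86, and Mavs passed as higher at 24 h (0.51 ± 0.19, adjusted p = 0.0427). Without PIO + GM replicate 3 at 24 h the adjusted p was 0.0598 for Rigi and 0.0692 for Zbp1, which left 3 members in place of 5. Hair cell markers had a median log2 fold change of -0.74 in this contrast (7 of 10 at an unadjusted p under 0.05), supporting cell markers one of 1.02 (4 of 6), Schwann cell markers one of -1.28 (4 of 5) and erythroid markers one of -1.53 (4 of 4). Whether these had a part in the fall of the 5 genes was not tested.

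No other member passed the threshold over time with all libraries. Tlr3 was higher at 24 h in CTRL by 0.57 ± 0.27 (adjusted p = 0.123 by edgeR), and past the threshold when CTRL replicate 2 at 24 h was left out (adjusted p = 0.0406), but at 0.35 without CTRL replicate 3 at 24 h. Dhx58 was lower at 24 h in GM without overlap (-0.78 ± 0.37, adjusted p = 0.125), where 44.9% of all genes did not overlap, and was at -0.76 ± 0.37 in PIO + GM (adjusted p = 0.118). These values were -0.46 without GM replicate 3 at 6 h and -0.20 without PIO + GM replicate 1 at 6 h. Zbp1 was at -0.94 ± 0.48 in PIO (adjusted p = 0.147). Sting1 passed the threshold in PIO, as higher at 24 h, when PIO replicate 3 at 6 h was left out (1.42 ± 0.47, adjusted p = 0.0259), and was at 0.49 with all libraries. Eif2ak2 was lower without overlap in PIO by a small step (-0.14 ± 0.16), where 41.3% of all genes did not overlap. The medians of the 9 log2 fold changes were 0.27 in CTRL, -0.19 in GM, -0.15 in PIO and -0.76 in PIO + GM, beside 0.03, 0.02, 0.01 and 0.01 over all genes. With 1 library left out they ranged from 0.08 (without CTRL replicate 3 at 24 h) to 0.57 (without CTRL replicate 2 at 6 h), from -0.40 (without GM replicate 1 at 24 h) to -0.09 (without GM replicate 3 at 6 h), from -0.28 (without PIO replicate 2 at 6 h) to -0.10 (without PIO replicate 1 at 6 h) and from -0.97 to -0.60.

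**Figure D5:**
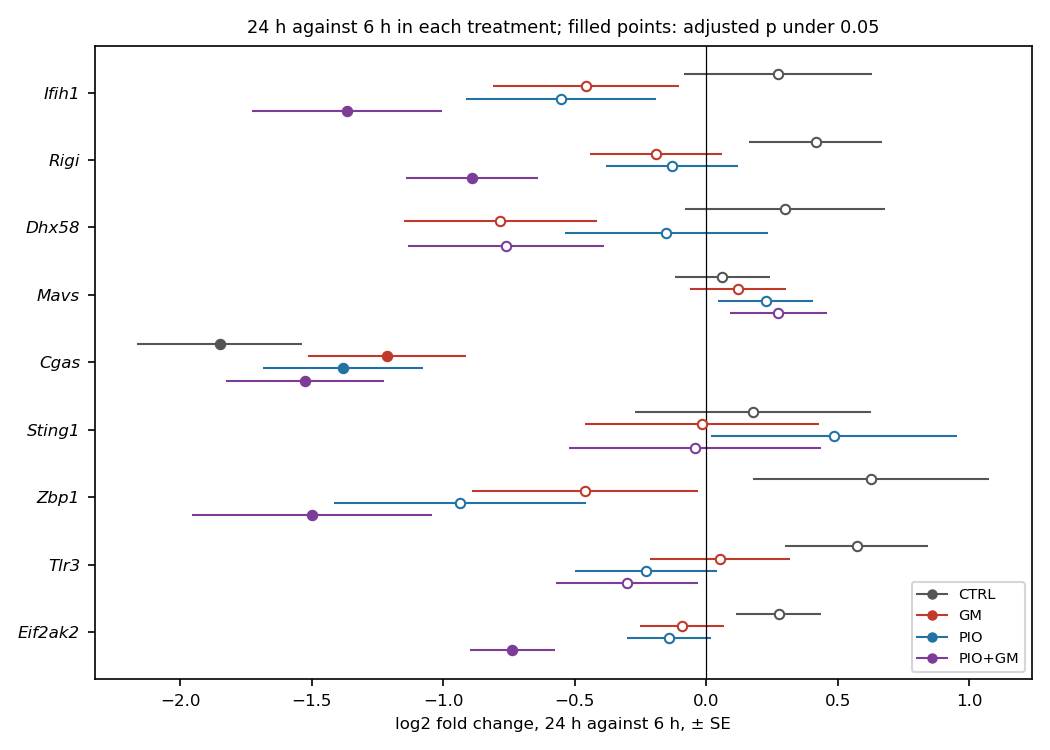
Log2 fold change ± SE (edgeR) of each sensor gene at 24 h against 6 h in CTRL, GM, PIO and PIO+GM, filled where the adjusted p was under 0.05. Cgas is filled and lies between -1.85 and -1.21 in all 4 treatments, and Ifih1, Rigi, Zbp1 and Eif2ak2 are filled in PIO+GM only, which does not test whether the treatments differ.

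Of the 69 tested genes of the 7 lists, 26.1% passed the adjusted threshold between the times in CTRL, 30.4% in GM, 36.2% in PIO and 47.8% in PIO + GM, beside 28.0%, 24.2%, 29.0% and 34.6% of all genes. The counts of single lists are given as a description and are to be read against those shares. Of the 14 genes of the cGAS-STING list, 3 passed in CTRL, 4 in GM, 5 in PIO and 4 in PIO + GM. In each treatment they included the kinase gene Ikbke and the lysosomal DNase gene Dnase2a as higher (1.34 ± 0.15 and 1.14 ± 0.17 in CTRL) and Ifi204 as lower (-1.40 ± 0.42 in CTRL and -2.96 ± 0.41 in PIO + GM). Of the 12 cofactors of the RIG-I-like receptors, 1 was higher and 4 lower in CTRL, 2 and 5 in GM, 1 and 4 in PIO, and 2 and 5 in PIO + GM. The ubiquitin ligase gene Rnf125, which limits RIG-I and MDA5, and the RNA-binding cofactor Zc3hav1 were lower in all 4, at -1.22 ± 0.38 and -1.03 ± 0.26 in CTRL, and so were G3bp1, a stress granule scaffold (-0.86 ± 0.13), and Tomm70a, a mitochondrial import receptor that binds MAVS (-0.84 ± 0.15).

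Of the 11 genes of the endosomal receptor list, 2 were higher in CTRL, 1 in GM, and 2 higher and 1 lower in both PIO and PIO + GM. Unc93b1, the chaperone that carries endosomal receptors from the endoplasmic reticulum, was higher in each (1.51 ± 0.41 in CTRL and 1.88 ± 0.42 in PIO + GM). Of the 10 PKR partners and eIF2 kinases, 2 were higher and 3 lower in CTRL and in GM, 2 and 2 in PIO, and 1 and 2 in PIO + GM. They included Eif2s1, the substrate of PKR, as lower in all 4 treatments (-0.95 ± 0.20 in CTRL). Of the 7 genes of the ZBP1 list, 2, 3, 1 and 3 were lower and 0 higher in CTRL, GM, PIO and PIO + GM, with the RNA editing gene Adar lower in CTRL (-0.65 ± 0.23), GM (-0.75 ± 0.23) and PIO + GM (-0.80 ± 0.23).

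Of the 7 tested genes of interferon receptor signalling, the receptor kinase gene Jak1 was lower in all 4 treatments (-0.63 ± 0.14 in CTRL), and in PIO + GM the transcription factor genes Stat2 (-1.14 ± 0.34) and Irf9 (-0.97 ± 0.22) were lower too. Of the 8 interferon-stimulated readouts, 0 passed in CTRL and in GM (edgeR, with 0 and 3 at an unadjusted p under 0.05), 5 were lower in PIO and 8 were lower in PIO + GM. Their medians were -0.12, -0.98, -1.96 and -2.80, with Rsad2 at -2.79 ± 0.73 in PIO and -4.27 ± 0.73 in PIO + GM.

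Whether a drug effect differed between the times, or with the other drug, was tested as an interaction in 6 contrasts. In edgeR 0 members and 0 of all genes passed the adjusted threshold in each of the 6, and DESeq2 called 0 members. With an unadjusted p under 0.05 there were 0 members for GM against CTRL, where the difference between the effects at 24 h and 6 h ranged from -1.09 for Zbp1 to 0.64 for Cgas, and 125 genes in all. These 2 values were -0.37 without CTRL replicate 3 at 24 h and 0.29 without CTRL replicate 2 at 6 h. For PIO against CTRL there were Zbp1 (-1.56 ± 0.66) and Tlr3 (-0.80 ± 0.38), both with an adjusted p = 0.898, among 714 genes. Without CTRL replicate 3 at 24 h this value of Zbp1 was -0.85. Eif2ak2 had -0.65 ± 0.23 (adjusted p = 0.843) for PIO + GM against GM, among 663 genes, and -0.60 ± 0.23 for PIO + GM against PIO, where Rigi had -0.76 ± 0.36, among 247 genes. That of Rigi was -0.48 without PIO + GM replicate 1 at 6 h. The effect of PIO with GM minus that without GM gave 0 members at either time, among 293 and 197 genes, with values from -0.24 to 0.54 at 6 h and from -0.30 to 0.41 at 24 h.

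Across the 24 libraries the 9 genes fell into patterns that the order of their groups also shows. The means of Ifih1 and Rigi were highest in PIO + GM and GM at 6 h (5.43 and 5.34 log2 CPM for Ifih1, 6.31 and 6.13 for Rigi) and next in GM at 24 h. Neighbouring groups in the order of Ifih1, Rigi, Dhx58, Zbp1, Tlr3 and Sting1 overlapped at every step. Cgas had 1 step without overlap, between PIO at 6 h (2.41) and PIO + GM at 24 h (1.39), Eif2ak2 had 1 between its highest groups, and Mavs had 1 between PIO at 24 h (5.39) and PIO + GM at 24 h (5.21). Pearson's r of log2 CPM was 0.91 between Ifih1 and Rigi, 0.89 between Rigi and Dhx58, 0.88 between Dhx58 and Zbp1, and 0.86 between Rigi and Eif2ak2 over 24 libraries. It was 0.82, 0.87, 0.91 and 0.85 for the deviations from the group means, so these genes also varied together among libraries of 1 treatment. Mavs had an r of -0.23 with Ifih1 and 0.50 with Sting1, and Cgas an r of -0.13 with Sting1, but for the deviations from the group means these were 0.26, 0.76 and 0.46. These are descriptions, since the libraries share groups and depth.

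The genes most like each member over the 24 libraries, by Pearson's r among the 15002 genes with a mean log2 CPM of at least 0, were the interferon-inducible GTPase gene Igtp (0.96), Ifit3 (0.95) and Usp18 (0.95) for Ifih1, and Gbp7 (0.97), Irgm2 (0.96) and Parp9 (0.96) for Rigi. For Dhx58 they were Irf7 (0.93), Oas1g (0.88) and Oasl2 (0.88), for Zbp1 Oasl2 (0.91), Oas1g (0.90) and Isg15 (0.90), and for Eif2ak2 Herc6 (0.88), Gbp7 (0.85) and Trim21 (0.82). Tlr3 had lower values, with Crb2 (0.80), Ddx60 (0.79) and Rasgrp1 (0.79). Mavs was most like Tubgcp6 (0.94), Fam53c (0.92) and Pkd1 (0.91), and Sting1 most like Cd93 (0.92), Grap (0.92) and Adamtsl4 (0.89), of which Cd93 is a receptor of endothelial and myeloid cells.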

How the data were processed

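RNA of 24 libraries of OC explants was sequenced. Reads were mapped with RNA-STAR by the authors, who deposited, for each gene, whole-number counts of reads that start in any RefSeq exon, made with QuasR and not normalized, and 1 further column of gene length in base pairs. The submitters' processing notes name STAR and mm10. How strand and multiply matching reads were handled is not given in the sources used here. Of 24454 genes, 24374 had a symbol and 80 had none. From these counts, edgeR 4.0.16 under R 4.3.3 fitted 1 mean for each of 8 groups over all 24 libraries (TMM factors, filterByExpr, quasi-likelihood F-test), with Benjamini-Hochberg adjustment over 16317 genes and a threshold of 0.05. An SE is the log2 fold change divided by the root of its F value. A prior count of 2 entered log2 CPM, and RPKM used the deposited gene length. Alternatives were DESeq2 1.42.0, other filters and scalings, fits of only the groups compared, a replicate block and leaving out each library. The common biological coefficient of variation was 0.225. Replicates differed by more than sampling noise (chi-square per degree of freedom 10.2 to 77.8). What the replicate numbers mark is not stated. Deviations from the group means of libraries with the same number correlated with a mean r of 0.38 at 24 h (15 of 18 pairs over 0.1) and 0.11 at 6 h (9 of 18). For other numbers the mean r was -0.18 and -0.05. These 2 values are largely fixed by subtracting each group's mean, so they add no separate evidence. Every pair was over 0.1 for GM against CTRL, PIO against CTRL and PIO + GM against PIO at 24 h (lowest 0.428, 0.107 and 0.311). In these 3 comparisons libraries of the same number thus tended to vary together. The main SE, p-values and calls leave any such pairing out, because what the numbers mark is unknown. The block stayed an alternative throughout.

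The members and the lists of genes were chosen with earlier results of these data known. Values are given for a member where its unadjusted p was under 0.05 or its libraries did not overlap, for the 3 genes most like each member, and for list genes past the adjusted threshold or with the 2 lowest p-values in a comparison, of which the main ones are named. Some list genes are not reported here. The shorter promoter letters and the counts of members at an unadjusted p with a library left out or within pairs were added after seeing the data. A planned alignment of receptor proteins was not made. The procedure was tested on simulated data. Figures were drawn with matplotlib 3.10.9.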

Additional observations from a re-analysis of the deposited data

How the results depend on the processing

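No value past its threshold changed direction in the alternatives run. With DESeq2's Wald test, the number of members past the threshold was 1 in place of 0 for PIO + GM against GM at 6 h (Eif2ak2) and 1 in place of 0 for PIO against CTRL at 24 h (Zbp1), while the number over all genes was 1330 in place of 216 and 162 in place of 25. The cause was not tested. With 1 library left out, that number ranged from 1 to 2 for 24 h against 6 h in CTRL, from 1 to 2 in PIO and from 3 to 5 in PIO + GM. The median log2 fold change of the members ranged from -0.59 to -0.22 for PIO against CTRL at 24 h and from -0.66 to -0.28 for PIO + GM against GM at 24 h, highest without CTRL replicate 3 and without GM replicate 1. Of all counts of members called, 141 of 144 with a library left out and 124 of 126 otherwise stayed within 1.5 times, the rest being those just given. In every drug contrast and interaction the count with all libraries was 0, and 0 again was scored as unchanged. The tally also compares numbers and not genes. Without PIO + GM replicate 1 at 6 h, Rigi and Zbp1 dropped out and Mavs came in, for 24 h against 6 h in PIO + GM. The replicate block changed no call of a member, with 5 of 9 in 24 h against 6 h in PIO + GM and 1 of 9 in the other treatments, as without it. Between the times the block joined libraries of the same number at 6 h and 24 h. Whether such libraries vary together was examined within each time only.

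Counts over all genes moved more. For PIO + GM against GM at 6 h, 216 genes became 1990 with the replicate block, 0 in a fit of only the groups compared, and 4 to 4053 with 1 library left out, the largest without PIO + GM replicate 1 and the smallest without replicate 2. For PIO against CTRL at 6 h 55 became 0 to 383 over the alternatives and 6 to 120 with a library left out. For PIO against CTRL at 24 h 25 became 8 to 241 and 2 to 51, for PIO + GM against GM at 24 h 18 became 3 to 112 and 1 to 8, for PIO + GM against PIO at 24 h 12 became 0 to 35 and 4 to 17, and for GM against CTRL at 24 h 2 became 0 to 15 and 1 to 2. Between the times, the lowest counts with a library left out were 2665, 2164, 2702 and 3453 in place of 4564, 3954, 4731 and 5646, and in PIO a fit of only the groups compared gave 1540. A prior count of 0.5 moved no level of a member by more than 1 SD. The lowest count of any member was 11, for Sting1 in a PIO library at 6 h, where counting error is largest.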
